A study of Mus musculus with 20 samples.

Results

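The genes described here are 9 genes that respond to glucocorticoids in many tissues, and they were measured in mouse bone marrow that expressed a normal or a mutant splicing factor and was exposed to a splicing drug. They are *Fkbp5*, *Tsc22d3*, *Klf9*, *Sgk1*, *Ddit4*, *Txnip*, *Zbtb16* and *Errfi1*, which are known targets of the hormone, and *Nr3c1*, which encodes the glucocorticoid receptor. They were chosen by gene symbol, each symbol matched 1 gene identifier, and all 9 of the 37620 genes in the table were detected in all 20 mice. Bulk bone marrow cells were taken from (C57BL/6 × 129S4Sv/Jae)F1 recipients aged 6 to 12 weeks at transplantation, which had been lethally irradiated and engrafted for more than 6 weeks with marrow from doxycycline-inducible transgenic donors aged 8 to 12 weeks. All donors carried rtTA, the doxycycline-dependent activator, and either a U2AF1(WT) or a U2AF1(S34F) transgene, so the controls also expressed a U2AF1 transgene. All mice ate doxycycline chow for 7 days and were infused through a jugular catheter for 4 h on each of the last 5 of those days, either with sudemycin D6 at 50 mg/kg/day or with the cyclodextrin vehicle. Marrow RNA was taken 18 h after the final infusion. The 4 groups of 5 mice are named by transgene and infusion: U2AF1(WT) vehicle, U2AF1(WT) sudemycin, U2AF1(S34F) vehicle and U2AF1(S34F) sudemycin. Marrow of 2 to 3 donors was pooled before transplantation, so the p-values below measure the spread between recipients that may share donors.

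Glucocorticoids, the adrenal steroids of the stress response, enter the cell and bind the receptor, which is held ready by the Hsp90 chaperone complex. The bound receptor moves to the nucleus, where it activates genes by binding a short palindromic element. The receptor represses inflammatory genes largely through other transcription factors. In marrow and blood the hormone is known for killing lymphoid precursors, releasing neutrophils, lowering eosinophils and silencing chemokine and cytokine genes.

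The receptor's element is shown here because the members differed in whether a match to its motif was found near a transcript start. The palindromic motif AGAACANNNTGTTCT was searched on both strands within 10 kb of transcript starts in mm9, the build of the files. It was found near 304 of 70021 protein-coding starts (0.434%). Among the 9 genes it occurred at 3 places, 2 in introns of *Fkbp5* and 1 in an intron of *Sgk1*. The following stretches are from the plus strand, with the motif in capitals. The first lies at chr17:28557236-28557310, 8301 bases downstream of a *Fkbp5* start, the second at chr17:28579334-28579408, 704 bases upstream of another *Fkbp5* start, and the third at chr10:21713477-21713551, 182 bases upstream of a *Sgk1* start.
Fkbp5 intron, downstream match: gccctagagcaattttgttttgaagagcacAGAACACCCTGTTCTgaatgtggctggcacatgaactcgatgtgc
Fkbp5 intron, upstream match: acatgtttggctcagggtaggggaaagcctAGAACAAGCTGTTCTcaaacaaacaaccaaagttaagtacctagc
Sgk1 intron: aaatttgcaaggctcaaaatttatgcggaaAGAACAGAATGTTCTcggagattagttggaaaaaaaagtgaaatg

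A looser form, GNACANNNTGTNC, which contains the stricter motif, was near 20558 of the same starts (29.36%). It matched 10 places near the 5 starts of *Fkbp5* and 4 near the 11 starts of *Sgk1*. There was 1 near the 1 start of *Klf9* and 1 near the 5 starts of *Txnip*. None was found near *Tsc22d3*, *Ddit4*, *Zbtb16*, *Errfi1* or *Nr3c1*. Genes with more starts that lie far apart had more sequence searched, so the numbers of places cannot be compared between genes. The *Txnip* match lies 166 bases upstream of its first start, at chr3:96361678-96361750 in mm9 on the plus strand, and within an exon of the antisense transcript *Gm15441*. The *Klf9* match lies 6127 bases upstream of its start, at chr19:23209553-23209625, in an intron of *2410080I02Rik*. Both are printed because these genes changed under the drug, with the looser motif in capitals. A match is a run of letters and was not shown to bind the receptor in these cells.
Txnip upstream: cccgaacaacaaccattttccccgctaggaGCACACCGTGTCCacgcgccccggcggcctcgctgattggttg
Klf9 upstream: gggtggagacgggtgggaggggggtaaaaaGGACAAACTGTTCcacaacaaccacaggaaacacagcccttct

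The depth was 41145892 to 62138138 gene counts per mouse. Levels are given as CPM, which are counts relative to the TMM-scaled library size. Each drug or genotype effect was tested on its own 10 mice with edgeR's quasi-likelihood test and Benjamini-Hochberg adjustment over all genes tested, and a gene was called at FDR<10%. Signed values given for single genes are log2 differences in level. *U2af1* was higher in U2AF1(S34F) mice in both treatments, by 0.48 and 0.35 on the log2 scale, although both genotypes carried a transgene. *Xist*, the RNA that coats the inactive X chromosome, was at 859 CPM or more in all U2AF1(WT) mice and at 0.146 CPM or less in all U2AF1(S34F) mice. Sex and genotype therefore cannot be told apart in any comparison of the genotypes, and *Tsc22d3* is X-linked. Marker genes of all 8 lineages examined were detected, and neutrophil markers were the most abundant, with 39843 to 87783 summed CPM over 8 genes. In bulk marrow, fewer cells of a type and less RNA per cell cannot be told apart.

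The receptor itself, *Nr3c1* (ENSMUSG00000024431, chromosome 18, minus strand), a nuclear hormone receptor, was called in no comparison. It was at 252 ± 18.6 CPM (SD, n = 5) in U2AF1(WT) vehicle, 240.1 ± 23.4 in U2AF1(WT) sudemycin, 261 ± 13.001 in U2AF1(S34F) vehicle and 244 ± 17.0 in U2AF1(S34F) sudemycin mice. The ranges of the 4 groups overlapped. The log2 change under sudemycin D6 was -0.07 in U2AF1(WT), with a 95% interval of -0.26 to 0.11, and -0.10 in U2AF1(S34F), with an interval of -0.23 to 0.02. Between genotypes it was 0.03 under vehicle (95% interval -0.12 to 0.18) and -0.01 under sudemycin D6 (-0.18 to 0.16). Relative to annotated exon length, *Nr3c1* stood at 33.96 ± 2.51 CPM per kb in U2AF1(WT) vehicle mice, below *Txnip* at 129 ± 23.7 and *Tsc22d3* at 65.9 ± 21.8. It was followed by *Fkbp5* at 13.1 ± 2.00, *Sgk1* at 9.999 ± 0.553, *Ddit4* at 5.51 ± 1.20, *Klf9* at 3.82 ± 0.421, *Zbtb16* at 2.38 ± 0.731 and *Errfi1* at 1.53 ± 0.0921 CPM per kb. The ranges of *Ddit4* and *Klf9*, of *Klf9* and *Zbtb16*, and of *Zbtb16* and *Errfi1* overlapped, and those of the other neighbours in this order did not.

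*Fkbp5* (ENSMUSG00000024222, chr17:28536040-28654469, minus strand) encodes the co-chaperone FKBP51, which lowers the receptor's affinity for its ligand and so closes a feedback loop. In U2AF1(WT) vehicle mice it was at 78.8, 75.2, 79.4, 105 and 75.3 CPM in replicates 1 to 5. In U2AF1(WT) sudemycin mice it was at 121, 141, 142, 107 and 139 CPM in replicates 6, 8, 9, 10 and 12. All sudemycin-treated mice were above all vehicle-treated mice, with replicate 4 of vehicle close to replicate 10 of sudemycin. The level was 1.57 times as high, a log2 change of 0.65 (SE 0.117, edgeR FDR = 0.0136), and the exact two-sided permutation test of the group means gave p = 0.00794, the smallest 5 against 5 mice allow. *Fkbp5* ranked 88th by p of the 14763 genes tested. It was called without each mouse in turn, with log2 changes of 0.61 to 0.75.

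The same gene in U2AF1(S34F) mice was at 71.2, 73.6, 78.3, 99.5 and 94.6 CPM under vehicle. Under sudemycin D6 it was at 76.8, 161, 93.5, 88.4 and 99.96 CPM in replicates 2, 6, 9, 10 and 12. Replicate 6 stood far above the other mice. Of these, replicate 12 lay just above the highest vehicle value and the rest lay among the vehicle values. The log2 change was 0.31 (SE 0.189, FDR = 0.369), and without replicate 6 it was 0.09. The drug effects of the genotypes differed by -0.36 (95% interval -0.81 to 0.09), which did not pass the test of the interaction (FDR over 10%). Over both genotypes, in a fit on all 20 mice with genotype as a term, *Fkbp5* rose by 0.49 (SE 0.119, FDR = 0.0114). The genotypes under vehicle were within 0.01 of each other (95% interval -0.24 to 0.22). Under sudemycin D6 *Fkbp5* was 0.36 lower in U2AF1(S34F) mice without being called (FDR = 0.154), and it was called without replicate 6 of U2AF1(S34F) sudemycin, at -0.57 (FDR = 0.006).

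**Figure D1:**
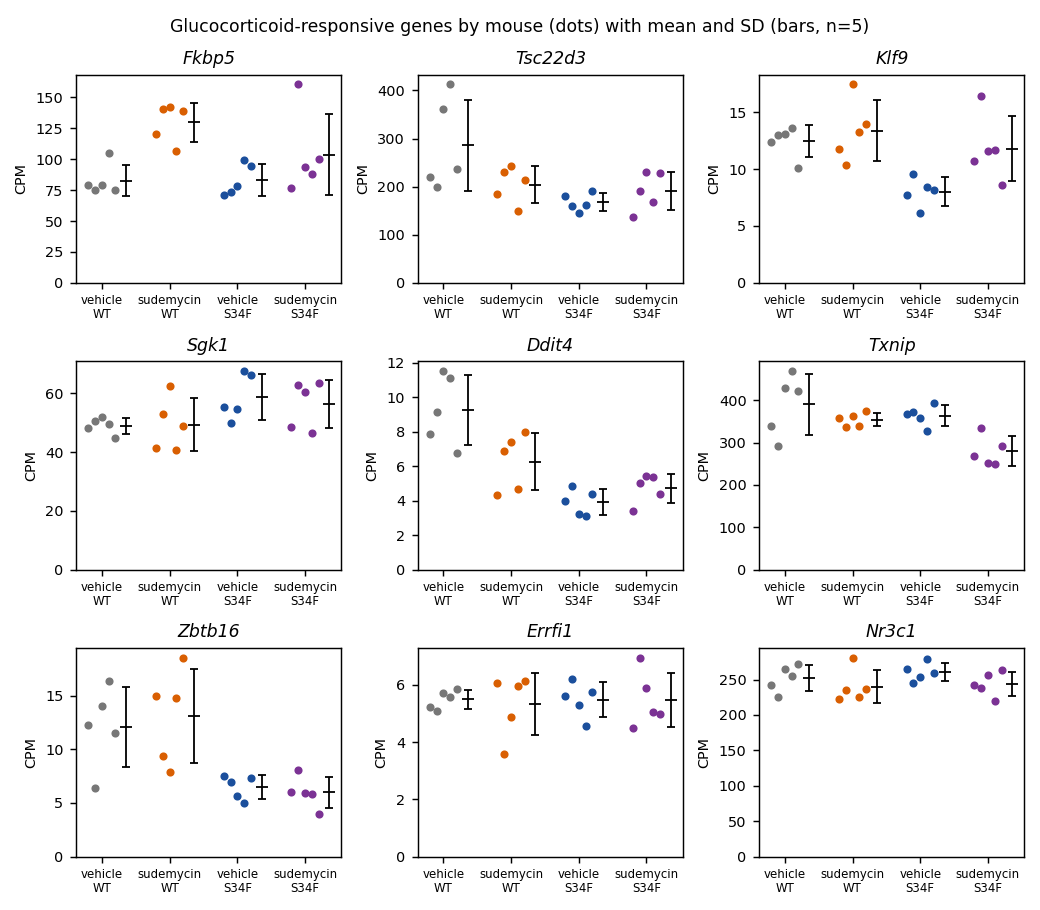
Level in CPM (y axis, linear, from 0) of each of the 9 genes in each mouse (dots) of the 4 groups of 5 (x axis), with the mean and SD as bars. The U2AF1(WT) sudemycin mice lie at 107 to 142 CPM of Fkbp5, above all U2AF1(WT) vehicle mice at 75.2 to 105, and 2 U2AF1(WT) vehicle mice stand out in Tsc22d3 at 362 and 413 CPM.

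Of the 9 genes, *Fkbp5* was the only one called under sudemycin D6 in U2AF1(WT) mice, beside 3.07% of all genes tested (1.18% higher and 1.89% lower). It was also the only one whose groups did not overlap, beside 4.27% of all genes. The median log2 change of the 9 was -0.04, and that of all genes 0.0040. The next by size were *Ddit4* and *Tsc22d3*, at -0.57 and -0.49, and neither was called (FDR = 0.222 and 0.320). With the mutant transgene 2 of the 9 were called under the drug, *Klf9* higher and *Txnip* lower, beside 10.8% of all genes (4.94% higher and 5.85% lower), and no member had groups without overlap, beside 7.41%. Over both genotypes 3 of the 9 were called, *Fkbp5* and *Klf9* higher and *Txnip* lower, beside 15.0% of all genes (7.78% higher and 7.22% lower), and the *Klf9* call was lost in 10 of the 20 fits without 1 mouse. The changes of the 9 genes had both signs in each genotype.

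**Figure D2:**
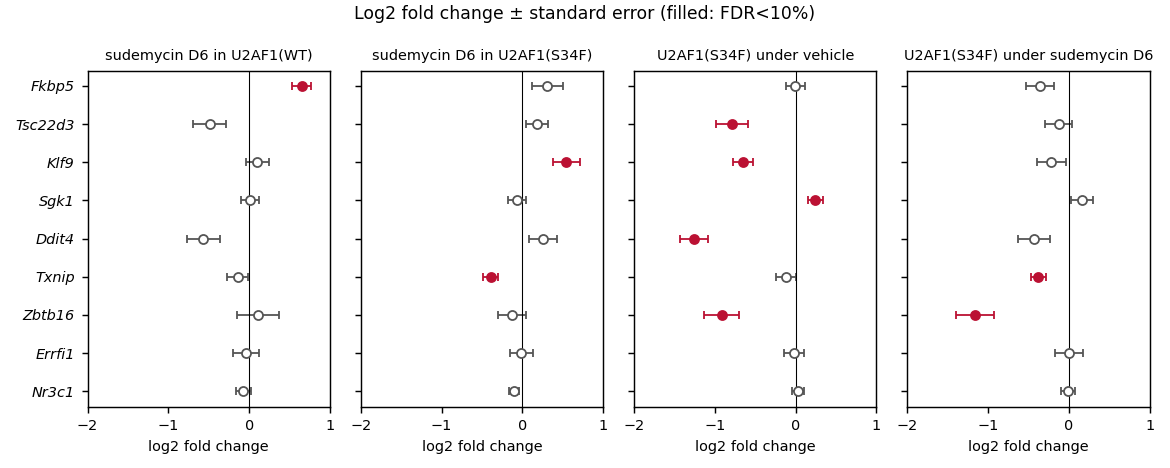
Log2 fold change (x axis) with its standard error for the 9 genes (y axis) in 4 comparisons of 5 against 5 mice, filled where FDR<10%. Under the drug 1 gene was called in U2AF1(WT) and 2 in U2AF1(S34F), and for U2AF1(S34F) against U2AF1(WT) 5 were called under vehicle and 2 under sudemycin D6.

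Beside the receptor, *Tsc22d3*, *Klf9* and *Zbtb16* act on transcription. These 3 fell in U2AF1(S34F) mice under vehicle, while *Nr3c1* was at 0.03 (FDR = 0.804). *Tsc22d3* (ENSMUSG00000031431, chrX:137074067-137135198, minus strand) encodes GILZ, which binds NF-kappaB and AP-1 and dampens inflammatory transcription. It was at 220, 199.99, 362, 413 and 237 CPM in U2AF1(WT) vehicle mice 1 to 5. It was at 180, 160.4, 145, 162 and 192 CPM in U2AF1(S34F) vehicle mice 1, 3, 5, 7 and 11. The groups did not overlap, and U2AF1(WT) replicates 3 and 4 were far above the other mice. *Tsc22d3* fell by 0.79 on the log2 scale in U2AF1(S34F) (SE 0.193, FDR = 0.0102), and by 0.61 to 0.89 without each mouse in turn. Under sudemycin D6 the genotypes overlapped, with 204 ± 38.1 CPM in U2AF1(WT) and 191 ± 40.0 in U2AF1(S34F), a log2 difference of -0.13 (FDR = 0.593).

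*Klf9* (ENSMUSG00000033863, chr19:23215716-23241401, plus strand), a Krüppel-like factor that represses transcription, was the member that rose under the drug in U2AF1(S34F) mice. It was at 7.75, 9.59, 6.11, 8.41 and 8.20 CPM under vehicle. It was at 10.7, 16.4, 11.6, 11.7 and 8.60 CPM under sudemycin D6. The lowest drug-treated mouse, replicate 12, lay below the highest vehicle-treated one. The log2 change was 0.54 (SE 0.166, FDR = 0.0766), and the call was lost in 7 of the 10 fits that left out 1 mouse, with changes of 0.38 to 0.64. In U2AF1(WT) mice the change was 0.10 (FDR = 0.83), and the difference between the drug effects of the genotypes, 0.42, was not called (unadjusted p = 0.0743).

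Between genotypes under vehicle *Klf9* fell by 0.65 (SE 0.126, FDR = 0.00213). The U2AF1(WT) mice were at 10.1 to 13.6 CPM and the U2AF1(S34F) mice at 6.11 to 9.59, so the groups did not overlap. Under sudemycin D6 the ranges overlapped, at 10.4 to 17.4 and 8.60 to 16.4 CPM, and the log2 difference of -0.22 was not called (FDR = 0.382). Other Krüppel-like factors and paralogs of the members were described beside it. In U2AF1(S34F) mice under vehicle 1 of the 12 tested was higher and 7 were lower, beside 19.7% and 19.8% of all genes tested. Among those lower were *Klf2*, which keeps lymphocytes quiescent, at -2.38, *Klf6* at -0.94, *Klf4* at -0.87 and *Klf13* at -0.69. Under the drug in U2AF1(WT) mice 1 of 13 was called, *Klf6* at -0.59 (FDR = 0.0290). With U2AF1(S34F) 3 of 13 were, all lower, which were *Nr3c2* at -0.79, *Tsc22d1* at -0.53 and *Arrdc3* at -0.46.

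*Zbtb16* (ENSMUSG00000066687, chr9:48462416-48644050, minus strand) encodes PLZF, a zinc-finger repressor of progenitors and innate-like T cells. It was at 12.3, 6.37, 14.0, 16.4 and 11.6 CPM in U2AF1(WT) vehicle mice. In U2AF1(S34F) vehicle mice it was at 7.47, 6.99, 5.66, 4.98 and 7.36 CPM. Replicate 2 of U2AF1(WT) lay among the U2AF1(S34F) mice and the other 4 above them. It fell by 0.92 on the log2 scale (SE 0.214, FDR = 0.00696). Under sudemycin D6 it was at 7.90 to 18.5 CPM in U2AF1(WT) and at 3.94 to 8.08 in U2AF1(S34F) mice, which overlapped only at their edges, and it fell by 1.16 (SE 0.239, FDR = 0.00443). The drug itself gave log2 changes of 0.11 in U2AF1(WT) and -0.13 in U2AF1(S34F), neither called (FDR = 0.920 and 0.718).

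Some markers of T and NK cells were called between genotypes too. Under sudemycin D6 4 of 8 were lower in U2AF1(S34F) mice and none higher, beside 19.6% and 17.2% of all genes. Among those lower were *Cd8a* at -1.82 and *Cd3e* at -1.80. Under vehicle 3 were higher and 1 was lower, beside 19.7% and 19.8% of all genes. The summed level of the 8 was 57.6 to 73.3 CPM in U2AF1(WT) vehicle, 53.1 to 87.7 in U2AF1(WT) sudemycin, 78.3 to 96.2 in U2AF1(S34F) vehicle and 64.2 to 82.1 in U2AF1(S34F) sudemycin mice. Each of the 8 markers was detected in every group. Their part in the *Zbtb16* difference was not tested.

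*Sgk1* (ENSMUSG00000019970, chr10:21601990-21719709, plus strand), a kinase of ion transport and cell survival, was not called under the drug. It was at 49.0 ± 2.71 CPM in vehicle-treated and 49.3 ± 9.05 in U2AF1(WT) sudemycin mice. It was at 58.7 ± 7.78 under vehicle and 56.4 ± 8.19 under sudemycin D6 in U2AF1(S34F) mice. The log2 changes under the drug were 0.01 in U2AF1(WT), with a 95% interval of -0.22 to 0.23, and -0.07 in U2AF1(S34F), with an interval of -0.28 to 0.15. Between the vehicle groups the ranges were 44.8 to 51.9 CPM in U2AF1(WT) and 49.8 to 67.5 in U2AF1(S34F). *Sgk1* rose by 0.24 in U2AF1(S34F) (SE 0.0900, FDR = 0.0550), a call that was lost in 4 of the 10 fits without 1 mouse and in one model of all 20 mice (FDR = 0.108). It was the only member called higher in U2AF1(S34F) mice.

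*Ddit4* and *Txnip* act in stress and metabolism. *Ddit4* (ENSMUSG00000020108, chr10:59412423-59414518, minus strand) encodes REDD1, an inhibitor of mTORC1. It was at 7.89, 9.16, 11.5, 11.1 and 6.76 CPM in U2AF1(WT) vehicle mice. It was at 3.96, 4.87, 3.21, 3.12 and 4.39 CPM in U2AF1(S34F) vehicle mice. No U2AF1(S34F) mouse reached the lowest U2AF1(WT) mouse. *Ddit4* fell by 1.25 on the log2 scale (SE 0.174, FDR = 0.000290), the largest difference among the 9 genes in this comparison.

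Under sudemycin D6 *Ddit4* was at 4.33, 6.89, 7.39, 4.65 and 7.96 CPM in U2AF1(WT) mice and at 3.41, 5.05, 5.41, 5.37 and 4.36 CPM in U2AF1(S34F) mice. The groups overlapped, since replicates 6 and 10 of U2AF1(WT) lay among the U2AF1(S34F) mice. The difference of -0.44 (SE 0.199, FDR = 0.120) was not called, and without either of these mice it was. The drug effect was -0.57 in U2AF1(WT) and 0.25 in U2AF1(S34F). The difference between them, 0.80 (SE 0.276), had an unadjusted p of 0.00832 and an FDR of 0.448. Of 6 tested targets and partners of ATF4, a stress factor that also drives *Ddit4*, 2 were lower under the drug in U2AF1(WT). These were *Ddit3* at -0.76 (FDR = 0.00543) and *Atf4* at -0.62 (FDR = 0.0166), beside 1.89% of all genes called lower. In U2AF1(S34F) 1 was lower, *Ddit3* at -0.42, beside 5.85%. In U2AF1(S34F) mice under vehicle 3 were lower and 1 was higher, beside 19.8% and 19.7% of all genes. *Atf4* was at -0.90, *Ddit3* at -0.75 and *Sesn2* at -0.40, while *Asns* was at 0.64. The part of these genes in the *Ddit4* differences was not tested.

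*Txnip* (ENSMUSG00000038393, chr3:96361880-96365806, plus strand) binds thioredoxin and limits glucose uptake. It was at 366, 372, 357, 327 and 394 CPM in U2AF1(S34F) vehicle mice. Under sudemycin D6 it was at 269, 335, 252, 249 and 292 CPM in the same genotype. Replicate 6 of the drug group lay just above the lowest vehicle-treated mouse and the other 4 lay below all of them. *Txnip* fell by 0.39 on the log2 scale (SE 0.0915, FDR = 0.0294), and by 0.35 to 0.47 without each mouse in turn. In U2AF1(WT) mice it was at 390.1 ± 71.7 CPM under vehicle and 354 ± 15.6 under sudemycin D6, a change of -0.14 (FDR = 0.687). The difference between the drug effects was -0.27 (95% interval -0.58 to 0.05) and was not called.

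Between the genotypes *Txnip* differed by -0.12 under vehicle (FDR = 0.471) and fell by 0.38 under sudemycin D6 (SE 0.0938, FDR = 0.0114). In the latter the U2AF1(WT) mice at 337 to 374 CPM were all above the U2AF1(S34F) mice at 249 to 335. Its antisense neighbour *Gm15441* was at 0.632 CPM or less in every mouse. Of 5 tested genes of glucose sensing and thioredoxin, none was called under the drug in either genotype. In U2AF1(S34F) mice under vehicle *Mlxip*, which with *Mlx* binds the *Txnip* promoter, was at -0.78 and *Arrdc4*, a relative of *Txnip*, at -0.47, while *Mlx* was at 0.31 and *Txn1* at 0.26. Some markers of other lineages were also called in U2AF1(S34F) mice under the drug, beside 5.85% of all genes lower and 4.94% higher. Of 6 megakaryocyte markers 2 were lower, *Pf4* at -0.93 and *Itga2b* at -0.67, and 1 was higher, *Clec1b* at 1.31, with a summed level of 47.9 to 65.5 CPM under vehicle and 40.4 to 79.1 under sudemycin D6. Of 8 T and NK cell markers 2 were lower, *Cd3g* at -0.83 and *Cd3d* at -0.70, and of 8 B cell markers 1 was, *Igll1* at -2.10. The summed B cell markers were at 16.3 to 158 CPM under vehicle and at 34.7 to 53.2 under sudemycin D6 and each was detected in every group, and their part in the *Txnip* change was not tested.

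*Errfi1* (ENSMUSG00000028967, chr4:150228028-150243001, plus strand), which encodes the EGFR inhibitor MIG6, was called in no comparison and was the lowest member per length in U2AF1(WT) mice. It was at 5.50 ± 0.330, 5.34 ± 1.098, 5.49 ± 0.614 and 5.48 ± 0.956 CPM in U2AF1(WT) vehicle, U2AF1(WT) sudemycin, U2AF1(S34F) vehicle and U2AF1(S34F) sudemycin mice. Its log2 change under the drug was -0.04 in U2AF1(WT), with a 95% interval of -0.36 to 0.27, and -0.01 in U2AF1(S34F), with an interval of -0.29 to 0.26.

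Under vehicle 5 of the 9 genes were called between the genotypes, *Tsc22d3*, *Klf9*, *Ddit4* and *Zbtb16* lower and *Sgk1* higher in U2AF1(S34F), beside 39.5% of all genes (19.8% lower and 19.7% higher). The groups did not overlap for 3 of them, *Tsc22d3*, *Klf9* and *Ddit4*, beside 19.5% of all genes. The median of the 9 was -0.12 and that of all genes 0.0021. Of 8 neutrophil markers 3 (37.5%) were called under vehicle, beside the same 39.5% of all genes. All 3 were higher in U2AF1(S34F), *S100a8* at 1.26, *Camp* at 0.41 and *Mmp8* at 0.37, and the median of the 8 was 0.20. The summed level of the 8 was 42377 to 48090.5 CPM in U2AF1(WT) vehicle and 53815 to 87783 in U2AF1(S34F) vehicle mice, without overlap. The part of these markers in the members' differences was not tested. Under sudemycin D6 2 were called, *Txnip* and *Zbtb16*, both lower, beside 36.8% of all genes (19.6% lower and 17.2% higher), and the groups did not overlap for 1, *Txnip*, beside 20.1%. In this comparison 4 of 8 B cell markers were lower and none higher, and of 8 monocyte and macrophage markers 4 were higher and 1 was lower. Vehicle-treated U2AF1(WT) against U2AF1(S34F) sudemycin mice gave 4 calls, all lower, beside 50.2% of all genes (25.1% lower and 25.1% higher). These were *Zbtb16* at -1.03 (FDR = 0.00441), *Ddit4* at -0.98 (FDR = 0.000641), *Tsc22d3* at -0.60 (FDR = 0.0495) and *Txnip* at -0.50 (FDR = 0.00779). Markers of several lineages moved in the same comparison. All 8 B cell markers were called lower, with a median of -1.60. So were 5 of 8 T and NK cell markers (2 were higher) and 4 of 6 eosinophil and basophil markers. Of 8 neutrophil markers 3 were higher and none lower, and of 8 monocyte and macrophage markers 2 were higher and 1 was lower. Of 6 megakaryocyte markers 2 were higher and 3 were lower. The summed B cell markers were at 40.6 to 139 CPM in U2AF1(WT) vehicle and at 34.7 to 53.2 in U2AF1(S34F) sudemycin mice. The part of these lineage markers in the 4 calls was not tested. In that comparison *Ddit4* alone of the 9 had groups that did not overlap, beside 23.7% of all genes. The *Tsc22d3* call there was lost without vehicle-treated replicate 3 or 4 and without sudemycin-treated replicate 2 or 10.

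For none of the 9 genes was a difference of the drug effect between genotypes called by the edgeR test of the interaction, which called 2 genes of all (0.0130%) at FDR<10% and 1144 (7.43%) at an unadjusted p under 0.05. DESeq2 called 116 of all genes and none of the 9. At an unadjusted p under 0.05 the members were *Ddit4* and *Tsc22d3*, at 0.80 and 0.65.

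Among the mice of a group the members varied together in part. After the group means were subtracted, Pearson's r over 20 mice was highest for *Tsc22d3* and *Ddit4* (0.67), *Sgk1* and *Nr3c1* (0.66), *Fkbp5* and *Sgk1* (0.66) and *Zbtb16* and *Errfi1* (0.65). It was lowest for *Sgk1* and *Zbtb16* (-0.38). The points share libraries and the scaling of each mouse. Vehicle-treated U2AF1(WT) replicates 3 and 4 were the highest of their group in *Tsc22d3*, *Ddit4*, *Txnip* and *Zbtb16*. Of 12226 genes at 1 CPM or more, those most like *Fkbp5* were *Ggt5* (r = 0.87) and *Sla* (0.83), those most like *Txnip* were *Amica1* (0.85) and its relative *Arrdc3* (0.83), and those most like *Klf9* were *Gm16949* (0.76) and *Als2cl* (0.74).

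The genes around the receptor were described from lists of its partners. Of 10 receptor chaperones, 1 was called under the drug in U2AF1(WT), *Dnaja1* at -0.47 (FDR = 0.0155), and none in U2AF1(S34F). Of 10 receptor coregulators none was called under the drug in either genotype. In U2AF1(S34F) mice under vehicle 6 coregulators were lower and none higher, beside 19.8% of all genes called lower, and under sudemycin D6 4 were lower and 1 was higher. Those lower under vehicle included *Ncoa3*, a coactivator of the p160 family, at -0.51, and the acetyltransferases *Ep300* at -0.50 and *Crebbp* at -0.50. Under sudemycin D6 5 chaperones were higher in U2AF1(S34F) and none lower, beside 17.2% of all genes called higher, and under vehicle 3 were higher and 1 was lower, *Dnaja1* at -0.41. Those higher under sudemycin D6 included *Ptges3*, the p23 co-chaperone, at 0.58, *Hsp90aa1* at 0.56, *Hsp90ab1* at 0.41 and *Hspa8* at 0.31. Of 5 genes of ligand access, *Nr3c2*, the mineralocorticoid receptor, was lower under the drug in U2AF1(S34F) at -0.79 (FDR = 0.0328), *Hsd11b1*, which regenerates active hormone, was higher in U2AF1(S34F) under vehicle at 0.39, and *Abcb1b*, a pump that exports steroids, was higher in U2AF1(S34F) under sudemycin D6 at 0.77.

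Of 29 other genes known to be induced by glucocorticoids that were tested under the drug in U2AF1(WT) mice, 1 was higher and 4 were lower, beside 1.18% and 1.89% of all genes, with a median of -0.05 against 0.0040 for all genes. The gene called higher was *Il1r2*, the decoy receptor of interleukin-1, at 0.57 (SE 0.0997, FDR = 0.0112). Its level was 52.6 to 67.4 CPM under vehicle and 78.1 to 104 under sudemycin D6 in U2AF1(WT) mice, without overlap. Those called lower included *Dusp1*, a MAP kinase phosphatase, at -1.14 (FDR = 0.0105), *Per1*, a clock gene, at -0.98 (FDR = 0.0576), and *Tnfaip3*, the NF-kappaB inhibitor A20, at -0.84 (FDR = 0.0166).

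Of the same 29 genes 4 were higher and 2 were lower under the drug in U2AF1(S34F) mice, beside 4.94% and 5.85% of all genes, with a median of -0.09. The 4 were *Pdk4*, a kinase that restrains glucose oxidation, at 0.90 (FDR = 0.0736), *Il1r2* at 0.84 (FDR = 0.0577), *Cdkn1a*, the p21 cell cycle inhibitor, at 0.79 (FDR = 0.0204), and *Per1* at 0.74 (FDR = 0.0273). *Il1r2* was at 35.5 to 63.1 CPM under vehicle and at 58.7 to 131 under sudemycin D6, with overlap. *Il1r2* rose by 0.72 over both genotypes (FDR = 0.000956). The count of 4 fell to 2 without vehicle-treated replicate 1 or sudemycin-treated replicate 9. Between genotypes under vehicle 2 of 28 were higher and 12 were lower in U2AF1(S34F), beside 19.7% and 19.8% of all genes, the latter led by *Per1* at -2.72, *Dusp1* at -2.15, *Zfp36*, which degrades cytokine mRNAs, at -1.93, and *Tnfaip3* at -1.64.

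Genes known to be repressed by glucocorticoids were lower in several cases. Under the drug in U2AF1(WT) mice 7 of 12 tested fell and none rose, beside 1.89% of all genes called lower, with a median of -0.99 against 0.0040 for all genes. *Ccl4* and *Ccl3*, chemokines of macrophages, were at -2.12 (FDR = 0.00101) and -1.73 (FDR = 6.07e-05), *Ptgs2*, the inducible cyclooxygenase, at -2.08 (FDR = 0.0576), and *Il6* at -1.87 (FDR = 0.0525). *Ccl3* was at 23.2 to 32.3 CPM under vehicle and at 6.34 to 10.05 under sudemycin D6, so that no mice overlapped. The count was 3 to 4 without vehicle-treated replicate 1, 3, 4 or 5 or sudemycin-treated replicate 12.

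Of the same 12 genes 3 fell in U2AF1(S34F) mice and 1 rose, beside 5.85% and 4.94% of all genes, with a median of -0.50. *Ptgs2* was at -2.03 (FDR = 0.0859), *Il1b* at -0.85 (FDR = 0.0557) and *Tnf* at -0.44 (FDR = 0.0224), while *Nos2*, the inducible nitric oxide synthase, was at 1.97 (FDR = 0.0297) with 1.68 CPM at most. The count of 3 was 1 without vehicle-treated replicate 1 or sudemycin-treated replicate 6. Between genotypes under vehicle 7 of 11 fell and none rose in U2AF1(S34F), beside 19.8% of all genes called lower, with *Cxcl2* at -3.92, *Ccl2* at -2.66, *Ccl3* at -2.26 and *Ptgs2* at -2.25. Monocyte and macrophage markers were summed at 1832 to 2779 CPM in U2AF1(WT) vehicle, 1732 to 2040 in U2AF1(WT) sudemycin, 1688 to 2344 in U2AF1(S34F) vehicle and 2182 to 2935 in U2AF1(S34F) sudemycin mice. None of these 8 markers was called under the drug in U2AF1(WT) and 1 was in U2AF1(S34F), *Ly6c2* at 0.29, and their part in the repressed genes was not tested.

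**Figure D3:**
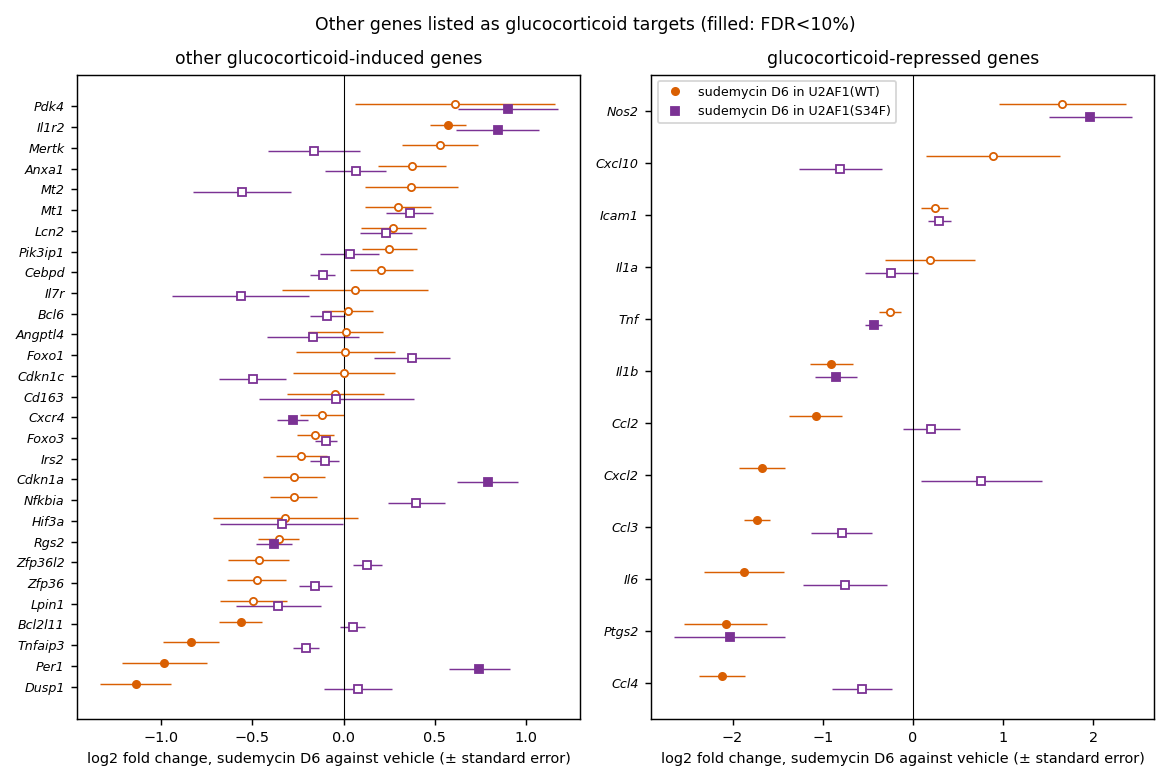
Log2 fold change of sudemycin D6 against vehicle (x axis) with its standard error for 29 other glucocorticoid-induced genes (left) and 12 glucocorticoid-repressed genes (right), in U2AF1(WT) (circles) and U2AF1(S34F) (squares), filled where FDR<10%. Of the repressed genes 7 fell in U2AF1(WT) and 3 in U2AF1(S34F), while of the induced genes 1 rose in U2AF1(WT) and 4 in U2AF1(S34F).

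Eosinophils, which glucocorticoids lower, were read from 6 markers of eosinophils and basophils. Under the drug 2 of them were lower in U2AF1(WT), *Mcpt8*, a basophil protease, at -1.25 (FDR = 0.0203) and *Prg2*, the eosinophil granule major basic protein, at -0.56 (FDR = 0.0498). With U2AF1(S34F) 1 was lower, *Prg2* at -1.03 (FDR = 0.00182). Their summed level was 264 to 423 CPM under vehicle and 196 to 277 under sudemycin D6 in U2AF1(WT), and 230.3 to 314 and 148 to 206 in U2AF1(S34F) mice. In U2AF1(S34F) the groups did not overlap. Precursor B cell markers *Igll1* and *Vpreb1* were lower under the drug in U2AF1(WT), at -2.46 (FDR = 0.0982) and -2.23 (FDR = 0.0600). The other 6 of 8 B cell markers were not called, and the median change of the 8 was -0.10. Summed, they were at 40.6 to 139 CPM in U2AF1(WT) vehicle and at 24.5 to 170 in U2AF1(WT) sudemycin mice, with overlap. No neutrophil marker of 8 was called under the drug in either genotype. The megakaryocyte marker *Clec1b*, a platelet receptor, was higher under the drug in U2AF1(WT) at 1.31 (FDR = 0.00217), the only one of 6 called there. Of 8 erythroid markers 1 was lower under the drug in U2AF1(S34F) and none was called in U2AF1(WT), and of 6 stromal markers none was called under the drug in either genotype. *Per1*, given above with the induced genes, was not in the list of clock genes. Of the 12 others tested none was called under the drug in U2AF1(WT) and 1 was higher in U2AF1(S34F). Between genotypes 6 of these 12 were lower and none higher in each treatment.

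Since the drug and the mutation both act on splicing, the junctions of the members were examined. Use of a junction within its gene was tested with edgeR over all junctions. No junction of a member was called at FDR<10% among the 62 tested under the drug in U2AF1(WT), the 59 under the drug in U2AF1(S34F), the 59 between genotypes under vehicle and the 61 between genotypes under sudemycin D6. At an unadjusted p under 0.05 there were 0, 0, 8 and 3, beside 1.79%, 2.03%, 10.6% and 11.5% of all junctions. At FDR<10% the share of all junctions called was 0.0552%, 0.0909%, 1.66% and 2.19%. *Klf9* has 1 junction and could not be tested. The lowest FDR was that of the *Sgk1* junction chr10:21718055-21718466, near the gene's end, at a log2 ratio to the gene of 0.56 in U2AF1(S34F) under vehicle (FDR = 0.101).

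The junctions also show which first exon a gene used. *Fkbp5* took 3348 of its 3390 first-exon reads (98.8%) from the exon that ends at chr17:28622897, and the exon whose start lies 704 bases from the second printed match took 14 reads. *Sgk1* took 89.1% of 6474 reads from the exon that ends at chr10:21714631. The printed match lies 958 bases upstream of an annotated start at chr10:21714472, ahead of that end. The exon nearest the printed match took 3.04% of the reads. That one had 2.61 ± 2.29% of reads in vehicle-treated and 5.22 ± 2.20% in U2AF1(WT) sudemycin mice, and 2.00 ± 1.11% and 3.77 ± 1.97% in U2AF1(S34F) mice, with overlap in both. The main *Sgk1* exon held 85.3 to 89.2% of reads in U2AF1(WT) vehicle and 91.6 to 94.2% in U2AF1(S34F) vehicle mice, without overlap. Under sudemycin D6 it held 77.2 to 91.0% and 80.9 to 91.6%, with overlap. The junction from that exon had a log2 ratio to the gene of 0.06 between genotypes under vehicle (unadjusted p = 0.720, FDR = 0.965) and was not called. The exon that ends at chr10:21602513 held 6.00 ± 2.73% of reads in U2AF1(WT) vehicle mice. It held 1.76 ± 1.56% in U2AF1(S34F) vehicle mice, with overlap. Its junction had a log2 ratio of -1.69 (unadjusted p = 0.00563, FDR = 0.184) and was not called. First-exon shares were computed for the members only, so no share over all genes stands beside such differences.

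The receptor gene itself used several first exons. The most used *Nr3c1* exon held 47.3 ± 6.67% of its first-exon reads in U2AF1(WT) vehicle, 55.4 ± 10.7% in U2AF1(WT) sudemycin, 61.6 ± 2.15% in U2AF1(S34F) vehicle and 62.6 ± 5.28% in U2AF1(S34F) sudemycin mice. The next one held 39.3 ± 5.97%, 33.0 ± 8.77%, 23.5 ± 2.34% and 26.6 ± 4.10% in the same order. Under vehicle no U2AF1(S34F) mouse, at 20.1 to 25.7%, reached the lowest U2AF1(WT) mouse at 35.0%. The junction from that exon had a log2 ratio to the gene of -0.69 in U2AF1(S34F) under vehicle (unadjusted p = 0.00293, FDR = 0.133) and -0.65 under sudemycin D6 (FDR = 0.206), neither called. The alternative first exons of *Nr3c1* are known to be untranslated and to precede shared coding exons.

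**Figure D4:**
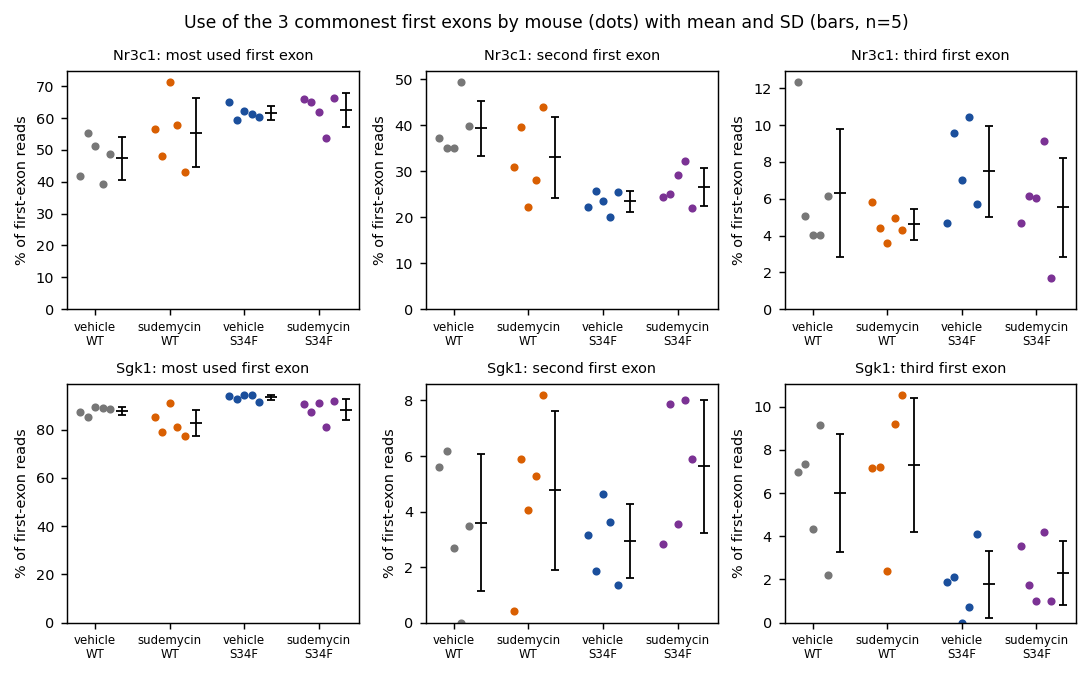
Share of first-exon junction reads, in percent (y axis, linear, from 0), of the 3 commonest first exons of Nr3c1 (top) and Sgk1 (bottom) in each mouse (dots) of the 4 groups of 5 (x axis), with mean and SD as bars. The second Nr3c1 exon held 35.0% or more in every U2AF1(WT) vehicle mouse and 25.7% or less in every U2AF1(S34F) vehicle mouse.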

How the data were processed

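The authors aligned paired-end reads of stranded, ribosomal RNA-depleted libraries to mm9 with TopHat 2.0.8 and deposited raw counts for 37620 genes and 554616 splice junctions. The program that made the gene counts is not given in the sources used here. Symbols were matched to 37205 genes, and exon lengths and transcript starts came from GENCODE M1 of the same build. Genes were tested in R 4.3.3 with edgeR 4.0.16 (filterByExpr, TMM, robust quasi-likelihood fit, prior count 2, FDR<10%), and junctions with diffSpliceDGE. Each comparison of 2 groups used its own 10 mice, while the effect over both genotypes and the interaction used all 20. DESeq2 1.42.0, DESeq2's size factors, no filter, a minimum of 1 CPM in 5 mice, one model of all mice, FDR<5%, a replicate block and fits without 1 mouse served as alternatives. The 95% intervals are a normal approximation from the log2 change and its standard error, which was derived from the test statistic. They can be narrower than the test implies. The method was tested on simulated counts. Motifs and plots were made in Python 3.11.15.

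All 9 members were named, with up to 4 called genes of largest change per list in the comparisons described and, for members called under the drug, the 2 genes of highest correlation. A gene that this rule names is not reported here, and other called genes of the lists are given as counts or left out. The members and lists were chosen with earlier results of these data known, so they are not independent evidence of a direction. *Fkbp5*, *Txnip* and *Errfi1* overlap transcripts of the other strand, and whether counting used strand is not given in the sources used here. Where several values of a list were given without an FDR, the genes were called at FDR<10%.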

Additional observations from a re-analysis of the deposited data

Results flagged for a closer look

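In each group of 5 mice, the gap of the highest or lowest mouse to its nearest neighbour was compared with the range of the group by Dixon's criterion for each of the 9 genes. Of 36 groups, 3 held such a mouse, and chance flags about 1 in 20 groups. *Fkbp5* was at 105 CPM in U2AF1(WT) vehicle replicate 4, while the other 4 mice were at 75.2 to 79.4 CPM. *Fkbp5* was at 161 CPM in U2AF1(S34F) sudemycin replicate 6, while the other 4 were at 76.8 to 99.96 CPM. The same mouse had the highest *Klf9* and *Txnip* levels of its group, at 16.4 and 335 CPM. *Nr3c1* was at 280.2 CPM in U2AF1(WT) sudemycin replicate 9, while the other 4 were at 222 to 237 CPM. That mouse was also the highest of its group in *Klf9* (17.4 CPM) and *Sgk1* (62.6 CPM). The causes were not tested.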

How the results depend on the processing

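For the 9 genes, leaving out 1 mouse kept 723 of 810 results on their side of the threshold and in their direction, took the call from 25, added one to 7 and turned the direction of 55. The other alternatives kept 358 of 378, took the call from 8, added one to 2 and turned 10. Every result that turned had a log2 difference of at most 0.13 and was at most 0.11 after turning, and none of the 17 called results turned. *Fkbp5* and *Txnip* kept the calls described under the drug, apart from the *Txnip* call over both genotypes at FDR<5%. *Klf9* lost its calls under the drug at FDR<5%, and *Sgk1* its call under vehicle at FDR<5%, in one model of all mice and with the replicate block. The *Tsc22d3* call of mutation and drug together and the *Klf9* call over both genotypes were lost without a filter on low counts. *Ddit4* between genotypes under sudemycin D6 was called by DESeq2 and in one model of all mice. The causes were not tested.

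At FDR<5% 1 member was called under the drug in U2AF1(S34F) and 1 over both genotypes. At FDR<10% 1 to 2 members were called under the drug in U2AF1(S34F) without each mouse. Junctions of members called between genotypes numbered 0 to 1 under vehicle and 0 to 3 under sudemycin D6 without each mouse, with 3 without U2AF1(WT) sudemycin replicate 9. All genes called under the drug in U2AF1(WT) numbered 453, and 243 at FDR<5%, 811 by DESeq2, 1072 in one model and 191 to 730 without each mouse. In U2AF1(S34F) they numbered 1588, and 826 at FDR<5%, 788 in one model and 913 to 1736 without each mouse. Over both genotypes 2309 became 1513 at FDR<5%. For the interaction 2 became 116 by DESeq2, 10 with no filter, 8 at 1 CPM or more and 2 to 87 without each mouse. All junctions called under the drug rose from 69 to 291 in U2AF1(WT) and from 114 to 318 in U2AF1(S34F) with a mean of at least 10 reads, and those between genotypes fell from 2082 to 1276 under vehicle and from 2720 to 1636 under sudemycin D6 at FDR<5%.

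The log2 differences that turned were near 0, and the ranges are over fits without 1 mouse. *Fkbp5* between genotypes under vehicle was 0.012 with no filter, 0.0045 in one model and -0.078 to 0.11 in range. *Errfi1* ranged from -0.062 to 0.041 between genotypes under vehicle and from -0.099 to 0.069 under sudemycin D6, where it was -0.0088 at 1 CPM or more. Its drug effect ranged from -0.12 to 0.050 in U2AF1(S34F), -0.0997 to 0.069 in U2AF1(WT) and -0.067 to 0.033 over both genotypes, and its other ranges were -0.13 to 0.048 for mutation and drug together and -0.096 to 0.077 for the interaction. *Nr3c1* ranged from -0.0092 to 0.059 between genotypes under vehicle, -0.038 to 0.064 under sudemycin D6 (0.012 with no filter) and -0.083 to 0.040 for the interaction. For the drug in U2AF1(WT) *Klf9* ranged from -0.013 to 0.18, *Sgk1* from -0.093 to 0.080 and *Zbtb16* from -0.057 to 0.24. Over both genotypes *Sgk1* ranged from -0.069 to 0.015 and *Zbtb16* from -0.085 to 0.062, with -0.00018 for *Zbtb16* with no filter and -0.0014 at 1 CPM or more. For the interaction *Sgk1* ranged from -0.16 to 0.035.

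Replicate numbers shared between the genotypes were not shown to pair the mice. The correlations of same-numbered mice were 0.11, 0.19 and -0.07 under vehicle and -0.03, 0.23, 0.37 and -0.18 under sudemycin D6, and 2 of the 7 numbers had mice that correlated best with their own number. With the replicate block 4 members were called between genotypes under vehicle and 2 under sudemycin D6, *Sgk1* being lost at 0.12 (FDR = 0.422). The block turned *Errfi1* to 0.0023 and *Nr3c1* to -0.053 under vehicle, and *Tsc22d3* to 0.029 and *Errfi1* to -0.053 under sudemycin D6. It left 435 of all junctions called under vehicle and 719 under sudemycin D6. No paired analysis was possible because the groups compared for the drug in either genotype share no replicate number, and the U2AF1(WT) vehicle and U2AF1(S34F) sudemycin groups share 1.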
